A study of Mus musculus with 6 samples.

Results

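The DNA replication machinery was described in CD4+YFP+CD25+ Tregs as 49 genes for origin licensing, the replicative helicase, the DNA polymerases, the sliding clamp and its loader, Okazaki fragment processing, fork protection and chromatin assembly. Members were the rows of the count table whose gene symbol was on a list of named replication genes. This rule uses no measured value, but the list was chosen with earlier results of these data known. The counts of called genes below are therefore a description and not an independent test. All 49 had a row among the 13709 of the table, and all 49 were among the 13594 genes tested. Counts came from bulk RNA-Seq of 3 WT (Foxp3Cre) and 3 KO (Foxp3Cre Zfp335fl/fl) samples of C57BL/6 mice, which were 2 weeks old per the study's methods. Cre and YFP were made from the Foxp3 locus in both genotypes, and in KO mice the Cre deletes the floxed Zfp335 gene. The locus drives Cre in every Foxp3-expressing cell, so in KO mice Zfp335 is targeted across their Tregs. WT mice carry the Cre without floxed alleles. The study reported lethal autoimmune inflammation in KO mice and attributed the loss of Treg signatures there to inflammation. Loss of Zfp335 within the Tregs and any inflammation around them cannot be told apart in these samples. The labels named lymph nodes in some fields and spleen in others, and they did not say whether a sample was 1 mouse or a pool. The p-values therefore measure the spread between these samples, which may be partly technical.

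Replication begins at origins that are licensed in G1 phase. The origin recognition complex (ORC) with Cdc6 and Cdt1 loads the MCM2-7 helicase ring onto DNA, and geminin holds Cdt1 inactive once S phase has begun. The Cdc7-Dbf4 kinase then activates the ring, and Cdc45 and the GINS complex join it to make the working helicase. Polymerase alpha-primase starts each new strand, polymerase epsilon extends the leading strand and polymerase delta the lagging strand, both held on DNA by the PCNA clamp. Many of these genes are transcribed at the passage from G1 to S phase under E2F transcription factors, and Tregs of lymphoid organs include dividing cells.

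Promoter sequences of the E2F type are therefore shown first. RefSeq promoters (GRCm38.p6, 250 bases before to 50 bases after the annotated start) matched 40 of the 49 genes, some of them with several starts, which gave 49 promoters. They were searched on both strands for 4 spellings of the E2F motif, TTTCCCGC, TTTGGCGC, TTTGCCGC and TTTCGCGC, which can overlap each other. A match was found in at least 1 promoter of 16 of the 40 genes (40.0%), against 492 of the 10653 tested genes with a promoter (4.62%). Counted by promoter, it was found in 16 of 49 (32.7%), against 744 of all 32851 (2.26%). The 22 matches began between 165 bases before and 40 bases after the start. The windows below are from origin licensing, helicase, clamp loader and fork genes, with the matched bases in capitals, and Orc3 is included as a gene whose WT and KO samples overlapped.
Orc1, chr4:108579416-108579445, plus strand: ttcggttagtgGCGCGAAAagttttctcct
Orc3, chr4:34614965-34614994, minus strand: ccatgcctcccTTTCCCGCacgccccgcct
Cdc6, chr11:98908002-98908031, plus strand: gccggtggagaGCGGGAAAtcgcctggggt
Cdt1, chr8:122568036-122568064, plus strand: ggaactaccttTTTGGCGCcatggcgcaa
Mcm3, chr1:20820275-20820304, minus strand: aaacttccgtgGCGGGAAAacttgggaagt
Mcm5, chr8:75109345-75109374, plus strand: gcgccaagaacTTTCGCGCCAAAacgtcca
Mcm6, chr1:128359797-128359826, minus strand: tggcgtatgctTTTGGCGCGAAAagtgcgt
Mcm7, chr5:138171849-138171878, minus strand: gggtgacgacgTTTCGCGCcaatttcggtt
Rfc3, chr5:151651200-151651229, minus strand: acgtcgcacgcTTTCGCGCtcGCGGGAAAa
Clspn, chr4:126556990-126557019, plus strand: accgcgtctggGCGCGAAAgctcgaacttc
In Mcm5 and Mcm6 a pair of spellings overlapped, and in Rfc3 a second match followed the first on the opposite strand. Each window is read on the strand of its gene.

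The 6 libraries held 32032631 to 40728419 counts. Zfp335 was at 101, 94.3 and 103 CPM (gene counts scaled to a common library size by TMM) in WT replicates 1, 2 and 3 and at 36.98, 37.9 and 40.2 CPM in KO replicates 1, 2 and 3, so each label fitted its targeted gene. The KO level of Zfp335 was 0.386 of the WT level, and the origin of the remaining transcript was not tested. WT replicate 3 stood apart from the other WT samples. It was the lowest of the 3 WT samples in 44 of the 49 replication genes, whereas 39.2% of all tested genes had their lowest WT value in it. In those 44 genes it was also the lowest of the 6 samples. Its median level was 67.7% of the mean of WT replicates 1 and 2, and in 7 replication genes it was under 0.5 of that mean. Replication genes varied more among WT samples (median coefficient of variation 22.9%, range 2.08% to 52.9%) than among KO samples (4.13%, range 1.7% to 11.6%). No 2 samples agreed within sampling noise. Sample pairs were compared by their median squared count difference, relative to that from counting error alone. Over all genes this ratio was 10.07 to 26.3 for WT pairs and 5.27 to 6.07 for KO pairs. WT samples thus differed more over all genes too. Over the replication genes it was 10.5 for WT replicates 1 and 2, and 275 and 297 for pairs with WT replicate 3. For KO pairs it was 4.45 to 14.4.

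**Figure D1:**
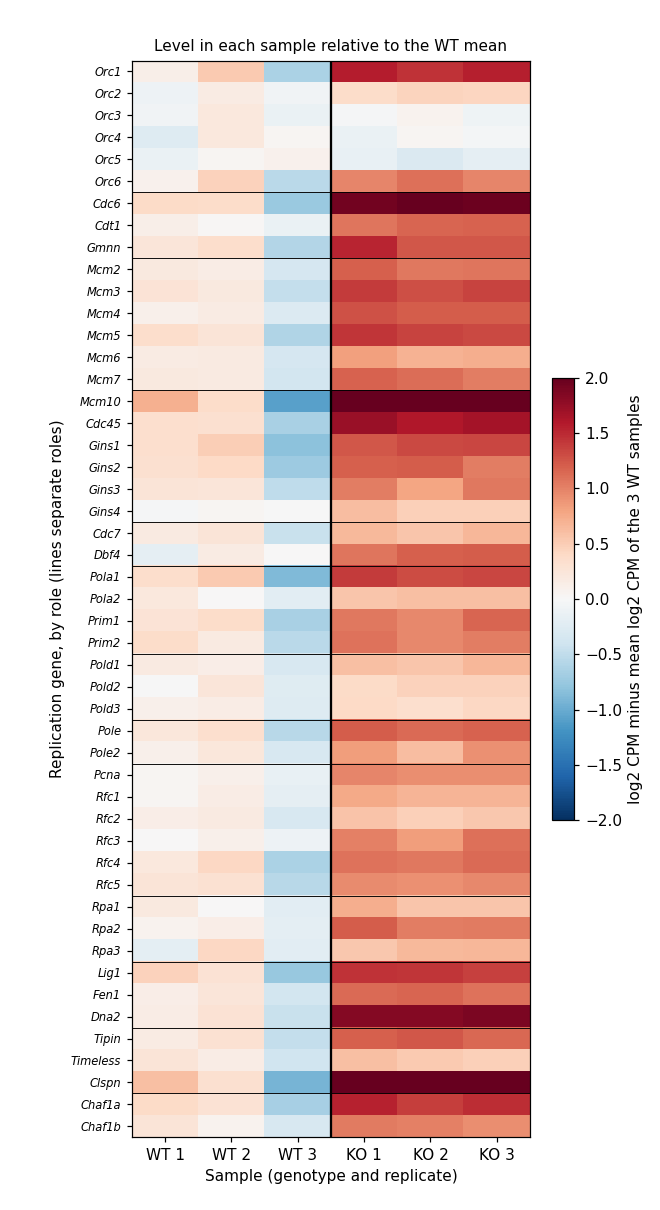
Level of each of the 49 replication genes (rows, by role) in each of the 6 samples (columns), as log2 CPM minus the mean log2 CPM of the 3 WT samples, on a scale that ends at 2 in both directions. The 3 KO columns are red in nearly every row, WT replicate 3 is the lowest sample in 44 rows, and Orc3, Orc4 and Orc5 stay pale throughout.

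Transcripts of the replication machinery were higher in KO Tregs as a group. Together the 49 genes took 0.334%, 0.333% and 0.22% of all counts in WT replicates 1, 2 and 3, and 0.581%, 0.554% and 0.557% in KO replicates 1, 2 and 3. The lowest KO sample was thus above the highest WT sample. In these bulk samples a larger share of cells with such transcripts and more transcript per cell cannot be told apart. Of the 49 genes, 39 were called higher in KO and 10 were not called, a gene being called at a fold change above 1.5, a p under 0.05 and an edgeR adjusted p under 0.1. Over all tested genes 11.9% were called higher and 12.5% lower. No replication gene was called lower by edgeR or DESeq2, and none with a lower value had an unadjusted p under 0.05 in either test. Without the fold cutoff 46 were higher at an adjusted p under 0.1, against 22.7% of all tested genes. Every KO sample exceeded every WT sample in 46 of the 49 genes, against 26.2% of all tested genes. The median log2 fold change of the 49 genes was 0.99, a fold change of 1.99, and the median over all tested genes was -0.04. Without WT replicate 3 the count called higher was 34, at a background of 13.6%, and the median was 0.82. Mcm6, Cdc7, Pold1, Rpa1 and Rpa3 were the genes that were no longer called.

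**Figure D2:**
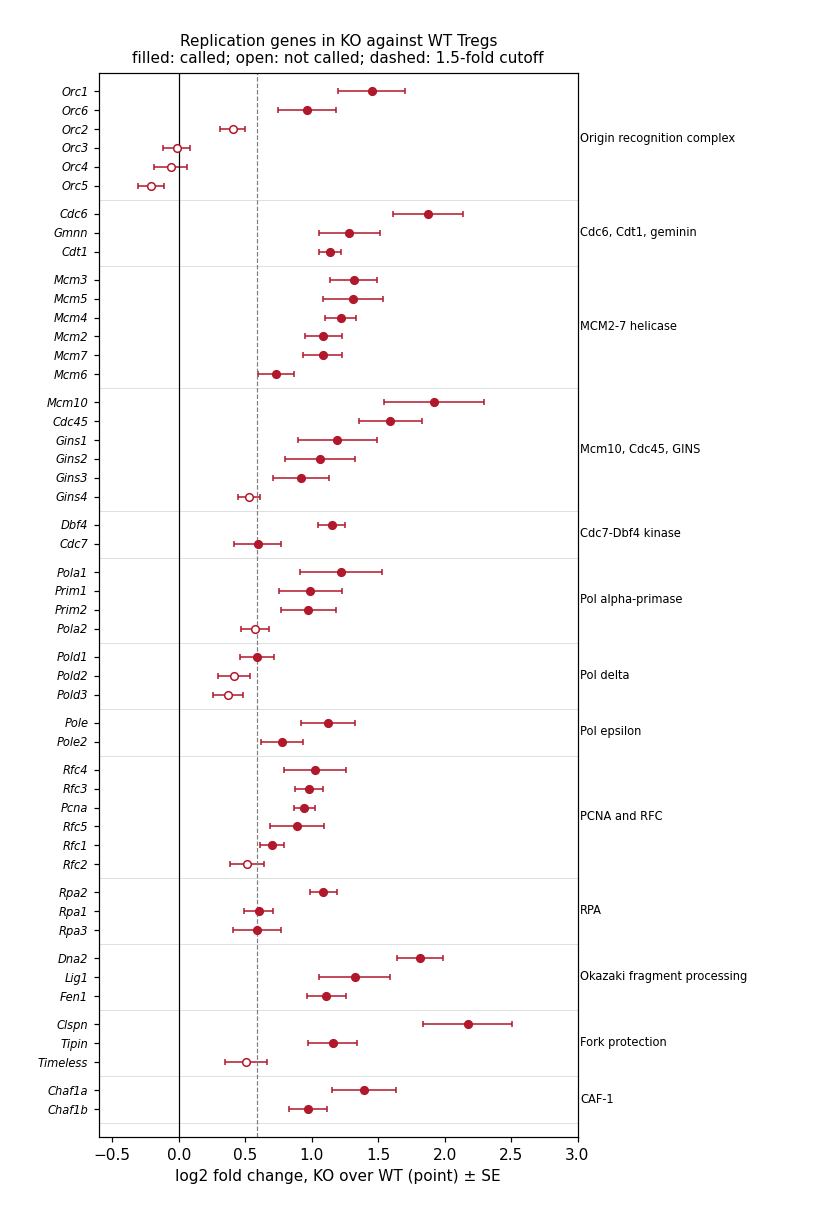
Log2 fold change of each replication gene, KO over WT (points, n = 3 samples per genotype), with its SE (bars), grouped by role. Filled points are the 39 genes called higher, open points are the 10 that were not called, and the dashed line is the 1.5-fold cutoff. Values run from -0.21 for Orc5 to 2.17 for Clspn.

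The origin recognition complex was split. Orc1 and Orc6 were called higher, while Orc2, Orc3, Orc4 and Orc5 were not called, and the median log2 fold change of the 6 subunits was 0.19. Orc1, the largest subunit and the ATPase that is made and destroyed with the cell cycle, was at 9.29, 12.3 and 5.56 CPM in WT and 25.5, 23.5 and 25.3 CPM in KO (replicates 1, 2 and 3 in this order, here and in what follows). Its lowest KO sample was well above its highest WT sample (edgeR adjusted p 0.00330, log2 fold change 1.45, SE 0.25). Orc6, the smallest subunit, was at 27.9, 36.4 and 18.1 CPM in WT and 52, 56.6 and 52.05 CPM in KO, again without overlap (edgeR adjusted p 0.0106, log2 fold change 0.96, SE 0.22). Orc2, a core subunit, was at 34.1, 40.98 and 34.8 CPM in WT and 47, 49.5 and 48.9 CPM in KO. All KO samples of Orc2 lay above all WT samples, and the difference passed the test but not the fold cutoff (edgeR adjusted p 0.0108, log2 fold change 0.41, SE 0.09). Orc3, which pairs with Orc2 in the core, was at 66.1, 80.4 and 63.4 CPM in WT and 68.8, 72.95 and 65.8 CPM in KO, and Orc4, another core subunit with an ATPase fold, at 38.6, 53.8 and 47.8 CPM and 42.1, 47.3 and 44.99 CPM. In both the genotypes overlapped, and neither differed beyond the spread between replicates (Orc3 log2 fold change -0.02, SE 0.10, edgeR adjusted p 0.919; Orc4 -0.06, SE 0.12, edgeR adjusted p 0.737). Their signs turned with the scaling or the samples used. Orc5, also a core subunit, was at 27.7, 31.4 and 32.5 CPM in WT and 27.5, 24.9 and 26.8 CPM in KO. Every KO sample of Orc5 was below every WT sample, by as little as the gap between 27.5 and 27.7 CPM, and the difference did not pass the test (edgeR adjusted p 0.123, log2 fold change -0.21, SE 0.10). Orc2, Orc4 and Orc6 share exon sequence with the neighbors Nif3l1, Acvr2a and Vps35 on the opposite strand, and some of their reads may come from those genes.

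**Figure D3:**
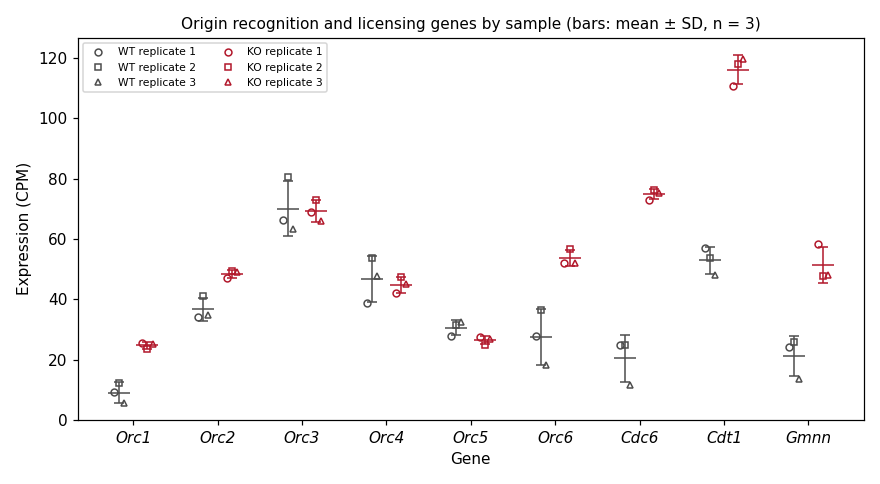
CPM of the 6 ORC genes and of Cdc6, Cdt1 and Gmnn in each of the 6 samples (marker shape for the replicate, color for the genotype), with mean ± SD bars (n = 3 per genotype). WT and KO samples overlap for Orc3 and Orc4, and KO samples are above WT samples for Orc1, Orc2, Orc6, Cdc6, Cdt1 and Gmnn.

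The loading factors and their inhibitor were all called higher. Cdc6, the ATPase that completes ORC on DNA, was at 24.9, 24.7 and 11.5 CPM in WT and 73.05, 76.4 and 75.1 CPM in KO. The KO samples were close to each other and far above the WT samples (edgeR adjusted p 0.00124, log2 fold change 1.88, SE 0.26). Reads of Cdc6 may be shared with the similar locus Gm9430. Cdt1, which brings the MCM ring to ORC, was at 57.1, 53.5 and 48.03 CPM in WT and 111, 118 and 119.6 CPM in KO, and it was among the replication genes with little spread in WT (edgeR adjusted p 7.54e-05, log2 fold change 1.14, SE 0.08). Gmnn, which encodes geminin, was at 24.1, 25.8 and 13.5 CPM in WT and 58.2, 47.8 and 47.9 CPM in KO, with no overlap (edgeR adjusted p 0.00358, log2 fold change 1.28, SE 0.23). The activator and the inhibitor thus rose side by side. The ratio of Cdt1 to Gmnn counts was 2.37, 2.08 and 3.57 in WT and 1.9, 2.47 and 2.5 in KO, which overlap (difference in mean log2 ratio -0.19, exact permutation test, two-sided p = 0.6, n = 3 against 3). Without WT replicate 3 that difference was 0.03.

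All 6 subunits of the MCM2-7 ring were called higher, at a median log2 fold change of 1.15. Mcm3 had the highest log2 fold change, at 174, 165 and 104 CPM in WT and 381, 351 and 369 CPM in KO (edgeR adjusted p 0.00112, log2 fold change 1.31, SE 0.18). Mcm6 had the lowest, at 247, 248 and 174 CPM in WT and 389.9, 356 and 365 CPM in KO (edgeR adjusted p 0.00426, log2 fold change 0.73, SE 0.14). Both had every KO sample above every WT sample, yet without WT replicate 3 Mcm6 had a log2 fold change of 0.58, just under the fold cutoff. Mcm2, at 146, 142 and 101 CPM in WT and 292, 265 and 269 CPM in KO, stood between them (edgeR adjusted p 0.000820, log2 fold change 1.09, SE 0.14). The log2 fold changes of Mcm4, Mcm5 and Mcm7 were 1.22, 1.31 and 1.08. Mcm7 shares exon sequence with Ap4m1 and resembles Gm5487. Per length, the subunits of this heterohexamer were at similar levels. From the longest transcript of each gene, WT levels ran from 105 TPM (a level per transcript length) for Mcm2 to 147 TPM for Mcm7, a ratio of 1.40, and KO levels from 218 TPM for Mcm2 to 304 TPM for Mcm5, also a ratio of 1.40. From coding lengths the ratios were 1.90 in WT and 1.67 in KO. By contrast, ORC subunits per length ranged 7.503-fold in WT, from 8.52 ± 3.28 TPM (SD, n = 3) for Orc1 to 63.9 ± 8.77 TPM for Orc3, and 5.18-fold in KO, from 19.5 ± 0.958 TPM for Orc5 to 101 ± 5.38 TPM for Orc6. Orc1 was at 22.7 ± 0.981 TPM in KO. It had the lowest level per length of the 6 subunits in WT by either length, and in KO by coding length.

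The factors that turn the loaded ring into a working helicase were called higher, apart from Gins4. Mcm10, which acts when the activated helicase starts to unwind DNA, was at 29.3, 23.02 and 8.41 CPM in WT and 76.6, 77.8 and 75.2 CPM in KO (edgeR adjusted p 0.00547, log2 fold change 1.92, SE 0.38). WT replicate 3 was far below the other WT samples of Mcm10, and the log2 fold change was 1.54 when that sample was left out. Cdc45, a partner of the ring, was at 22.8, 22.4 and 11.4 CPM in WT and 59.2, 54.5 and 57.01 CPM in KO (edgeR adjusted p 0.00165, log2 fold change 1.59, SE 0.24). Both genes had no overlap between the genotypes. Gins1, Gins2 and Gins3 of the GINS complex had log2 fold changes of 1.19, 1.07 and 0.92. Gins4, the remaining GINS subunit, was at 27.5, 28.6 and 27.7 CPM in WT and 42.9, 38.98 and 39 CPM in KO. Its WT samples were nearly equal, WT replicate 3 included, and the difference passed the test but not the fold cutoff (edgeR adjusted p 0.00182, log2 fold change 0.53, SE 0.08). Exons of Gins2 are covered to 67.3% by Gse1 on the opposite strand, so the value of Gins2 is uncertain, and Cdc45 shares a shorter stretch with Ufd1.

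Both subunits of the kinase that fires origins were called higher. Dbf4, which activates and targets the kinase, was at 30.3, 38.4 and 34.3 CPM in WT and 71.6, 78.4 and 78.99 CPM in KO (edgeR adjusted p 0.000175, log2 fold change 1.15, SE 0.10). Cdc7, the kinase itself, was at 34.1, 35.96 and 21.96 CPM in WT and 47.2, 43.96 and 47.6 CPM in KO (edgeR adjusted p 0.0292, log2 fold change 0.59, SE 0.17). Neither gene had overlapping genotypes. Cdc7 lay at the fold cutoff, and it was not called without WT replicate 3 (0.40), without KO replicate 1 (0.58) or without KO replicate 3 (0.57). The ratio of Dbf4 to Cdc7 counts was 0.891, 1.07 and 1.56 in WT and 1.52, 1.78 and 1.66 in KO, and WT replicate 3 overlapped with KO (exact permutation test, two-sided p = 0.2, n = 3 against 3).

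Polymerase subunits were called higher in 6 of 9 genes, against 11.9% of all tested genes. Of polymerase alpha-primase, Pola1, the catalytic subunit, was at 37.5, 42.4 and 15.9 CPM in WT and 77.1, 72.1 and 73.6 CPM in KO (edgeR adjusted p 0.0164, log2 fold change 1.22, SE 0.31). The primase subunits Prim1 and Prim2 had log2 fold changes of 0.99 and 0.98, both called. Pola2, the accessory subunit, was at 71.1, 62.2 and 53.05 CPM in WT and 90.6, 93.5 and 93.8 CPM in KO, and its fold change of 1.49 was just under the cutoff (edgeR adjusted p 0.00424, log2 fold change 0.58, SE 0.11). Polymerase epsilon was called in both of its subunits among the 49 genes. Pole, its catalytic subunit, was at 67.96, 73.3 and 39.8 CPM in WT and 135, 127 and 133 CPM in KO (edgeR adjusted p 0.00377, log2 fold change 1.12, SE 0.20). Pole2, its second subunit, was at 17.2, 18.7 and 12.8 CPM in WT and 28.6, 24.6 and 30.3 CPM in KO (edgeR adjusted p 0.00636, log2 fold change 0.78, SE 0.16). In each of these genes all KO samples exceeded all WT samples. Pole2 shares exon sequence with Gm49384. Of the other polymerase epsilon subunits, which were outside the 49 genes, Pole3 had a log2 fold change of 0.67. It was called higher, but not without WT replicate 3 (0.56). Pole4 overlapped between the genotypes and was not called (edgeR adjusted p 0.463, log2 fold change 0.12). Polymerase delta had a lower median, 0.42. Pold1, its catalytic subunit, was at 94.7, 91.3 and 66.5 CPM in WT and 126, 122 and 131 CPM in KO, a fold change of 1.503 (edgeR adjusted p 0.00912, log2 fold change 0.59, SE 0.13), which fell under the cutoff without WT replicate 3 (0.44) or KO replicate 3 (0.56). Pold3, an accessory subunit, was at 62.8, 64.6 and 48.7 CPM in WT and 76.5, 73.8 and 77.5 CPM in KO (edgeR adjusted p 0.0315, log2 fold change 0.37, SE 0.11). Pold2, which joins the subunits of the enzyme, had a log2 fold change of 0.42, so that Pold2 and Pold3 differed without reaching the fold cutoff. The ratio of Pole to Pold1 counts was 0.718, 0.803 and 0.598 in WT and 1.07, 1.04 and 1.01 in KO. These did not overlap, a difference in mean log2 ratio of 0.57 (exact permutation test, two-sided p = 0.1, the smallest that 3 against 3 samples allow).

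The sliding clamp, its loader and the single-strand binding protein were called higher in 8 of 9 genes, against 11.9% of all tested genes. Pcna, which encodes the clamp, was at 212, 221 and 184 CPM in WT and 405, 393 and 392 CPM in KO, with no overlap (edgeR adjusted p 0.000162, log2 fold change 0.95, SE 0.08). Its reads may be shared with the copy Pcna-ps2. Among the 5 loader subunits, Rfc4 had the highest log2 fold change, at 17.3, 19.9 and 9.64 CPM in WT and 31.7, 31.1 and 32.7 CPM in KO (edgeR adjusted p 0.0110, log2 fold change 1.03, SE 0.24). Rfc2 had the lowest and was not called, at 75.05, 77.5 and 54.8 CPM in WT and 102, 95.4 and 99.5 CPM in KO (edgeR adjusted p 0.0152, log2 fold change 0.52, SE 0.13). Every KO sample was above every WT sample in both. Rfc1, the large subunit, was at 82.5, 88.7 and 71.1 CPM in WT and 136, 129 and 129 CPM in KO (edgeR adjusted p 0.000835, log2 fold change 0.70, SE 0.09). Rfc3, a small subunit, was at 21.2, 22.7 and 19.6 CPM in WT and 42.6, 37.6 and 45.4 CPM in KO (edgeR adjusted p 0.000400, log2 fold change 0.98, SE 0.10). Rfc5, another small subunit, had a log2 fold change of 0.89, and all 3 were called. The ratio of Rfc1 to Rfc3 counts was 3.89, 3.9 and 3.62 in WT and 3.18, 3.44 and 2.84 in KO, with no overlap, at the smallest p the design allows (exact permutation test, two-sided p = 0.1, n = 3 against 3). Of the trimer RPA, which coats single-stranded DNA, Rpa2 was at 48.5, 50.8 and 40.5 CPM in WT and 107, 94.5 and 95.6 CPM in KO (edgeR adjusted p 0.000241, log2 fold change 1.09, SE 0.10). Rpa3 was at 11.9, 18.2 and 11.8 CPM in WT and 19.9, 21.4 and 21.8 CPM in KO (edgeR adjusted p 0.0330, log2 fold change 0.59, SE 0.18), and WT replicate 2 of Rpa3 came close to the KO samples. Rpa1, the large subunit, had a log2 fold change of 0.60. Rpa1 and Rpa3 were near the cutoff, and without WT replicate 3 they were at 0.50 and 0.48 and were not called. Rpa1 was also not called without KO replicate 1 (0.55), nor Rpa3 without WT replicate 1 (0.49), KO replicate 2 (0.58) or KO replicate 3 (0.56). Rfc2, Rfc4 and Rfc5 share exon sequence with Lat2, Eif4a2 and Wsb2.

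All 3 genes for finishing Okazaki fragments were called higher. Dna2, a nuclease and helicase that trims long flaps, was at 17.8, 19.6 and 11.8 CPM in WT and 56.9, 57.1 and 59.3 CPM in KO, with a wide gap between the genotypes (edgeR adjusted p 0.000267, log2 fold change 1.82, SE 0.18). Lig1, the ligase that seals the fragments, was at 125, 111 and 54.01 CPM in WT and 248, 246 and 234 CPM in KO (edgeR adjusted p 0.00653, log2 fold change 1.32, SE 0.27). Fen1, the flap nuclease, was at 50.4, 53.98 and 35.5 CPM in WT and 101, 103 and 97.8 CPM in KO (edgeR adjusted p 0.000981, log2 fold change 1.11, SE 0.15). WT replicate 3 was the lowest sample in each. Fen1 overlaps Tmem258 and an antisense locus, Gm10143, and Lig1 overlaps Zswim9.

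Among fork protection genes, Clspn had the highest log2 fold change of the 49. Clspn encodes claspin, an adaptor between the fork and the checkpoint kinase Chk1, and it was at 49.2, 40.3 and 17.03 CPM in WT and 172, 156 and 153 CPM in KO (edgeR adjusted p 0.00182, log2 fold change 2.17, SE 0.33). Its WT samples were far apart, and leaving out WT replicate 3 gave a log2 fold change of 1.83. Tipin, the partner of Timeless, had a log2 fold change of 1.16. Timeless itself, which couples the helicase and the polymerases, was at 102, 94.5 and 64.5 CPM in WT and 129, 122 and 119 CPM in KO, and it was not called (edgeR adjusted p 0.0360, log2 fold change 0.51, SE 0.16). The partners of this heterodimer thus fell on different sides of the fold cutoff, while the difference between them was not tested. Chaf1a and Chaf1b, subunits of chromatin assembly factor 1, which places histones on new DNA, were both called. Chaf1a was at 55.7, 52.4 and 27.03 CPM in WT and 124, 112 and 119.9 CPM in KO (edgeR adjusted p 0.00309, log2 fold change 1.40, SE 0.24), and Chaf1b at 45.2, 40 and 30.2 CPM in WT and 77.9, 76.6 and 72.1 CPM in KO (edgeR adjusted p 0.00138, log2 fold change 0.97, SE 0.14). Neither overlapped between the genotypes. Ubxn6 covers 52.5% of the exons of Chaf1a on the opposite strand, which makes its count uncertain.

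Summed over each role, the CPM of KO was 1.21 times that of WT for ORC and 1.4 times for polymerase delta, against 2.57 times for Cdc6, Cdt1 and Gmnn, 2.51 times for Okazaki fragment genes, 2.43 times for Mcm10, Cdc45 and GINS, and 2.16 times for MCM2-7. In each of the 13 roles every KO sum exceeded every WT sum, while single genes did so in 26.2% of all tested genes. Setting aside the 15 genes that share exon sequence with a neighbor or resemble another transcript, 27 of the other 34 were called higher. Of all tested genes 11.9% were. The 49 genes lay on 16 chromosomes, with 9 of them on chromosome 5 (18.4%, against 6.01% of tested genes).

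**Figure D4:**
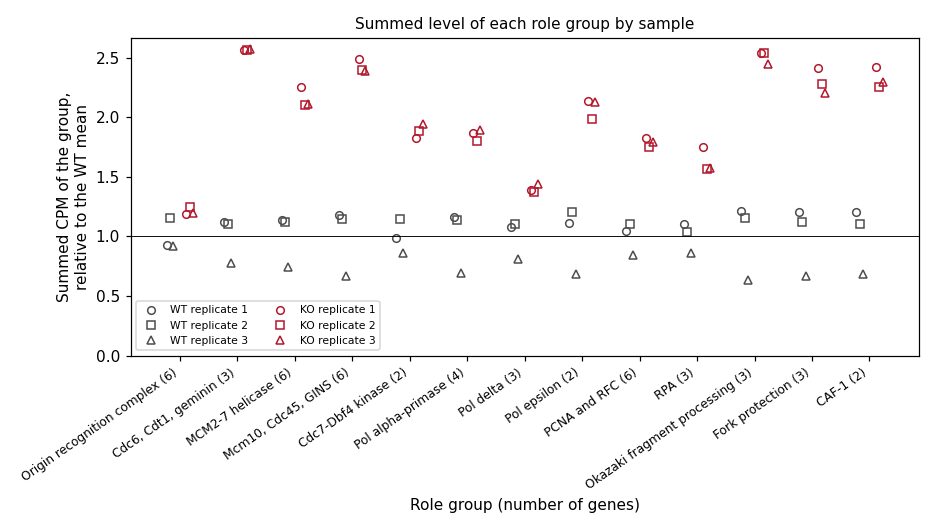
Summed CPM of each of 13 role groups (number of genes in parentheses) in each of the 6 samples, divided by the mean of the 3 WT samples. The mean of the KO samples is 1.21 for ORC, 1.4 for polymerase delta and 2.16 for MCM2-7, every KO sample is above every WT sample, and WT replicate 3 is the lowest sample in every group.

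Genes called higher were found with and without the E2F motif. Of the 16 genes with a match, 14 were called higher, at a median log2 fold change of 1.11, and of the 24 genes without a match 18 were, at a median of 0.95. The matched genes ran from -0.02 for Orc3 to 2.17 for Clspn, and the genes without a match from -0.21 for Orc5 to 1.92 for Mcm10. Over all tested genes with a promoter, 19.1% of those with the motif were called higher and 11.5% of those without. The CHR element (TTTGAA) was in a promoter of 7 of the 40 genes (17.5%, against 15.2% of tested genes), and CCAAT, searched on both strands like the others, in a promoter of 23 (57.5%, against 43.0%). These matches describe the letters of the window and not binding.

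Ratios between genes that work together were compared within each sample. In 10 pairs compared by exact permutation tests (two-sided, n = 3 against 3), no p could fall below 0.1, which becomes 0.125 after adjustment over the 10 pairs. The ratio of Orc1 to Orc2 counts was 0.273, 0.301 and 0.16 in WT and 0.543, 0.474 and 0.517 in KO. That of Cdc6 to Orc2 was 0.732, 0.603 and 0.332 against 1.55, 1.54 and 1.54, and that of Orc6 to Orc2 was 0.819, 0.889 and 0.522 against 1.11, 1.14 and 1.06. None of these overlapped, each at the smallest p, 0.1 in the exact permutation test. Mcm10 to Mcm2 was 0.2, 0.163 and 0.0834 in WT and 0.263, 0.294 and 0.28 in KO. Cdc45 to Mcm2 was 0.156, 0.158 and 0.113 in WT and 0.203, 0.206 and 0.212 in KO. Chaf1b to Chaf1a was 0.812, 0.764 and 1.12 in WT and 0.625, 0.687 and 0.601 in KO. These 3 pairs did not overlap either, and the ratios to Mcm2 were higher in KO while that of Chaf1b to Chaf1a was lower.

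Genes that work with the machinery were counted on the same scale. The background for each of these lists was 11.9% of all tested genes called higher and 12.5% called lower. Of 35 other replication factors, 20 were called higher and 1 lower (median log2 fold change 0.81, against -0.04 over all tested genes). The highest were Pclaf, a PCNA-binding protein, at 2.03, Top2a, a topoisomerase of dividing cells, at 1.80, and Asf1b, a histone chaperone, at 1.74. The lower call was Pold4, the smallest subunit of polymerase delta, which was at 38.6, 42.99 and 42.5 CPM in WT and 26.2, 25.4 and 23.5 CPM in KO (edgeR adjusted p 0.000683, log2 fold change -0.72, SE 0.09). Polymerase delta therefore held a subunit called higher, a subunit called lower, and subunits in between. Of 10 genes for deoxynucleotide supply, 6 were called higher (median 1.04), led by the ribonucleotide reductase subunits Rrm2 (2.46) and Rrm1 (1.72) and by thymidylate synthase, Tyms (1.48). All 12 genes of G2 phase and mitosis were called higher (median 1.94), with Bub1, a spindle checkpoint kinase, at 2.18, cyclin A2, Ccna2, at 2.11, and the proliferation marker Mki67 at 2.09. Of 19 genes of G1 and S phase control, 10 were called higher and 1 lower (median 0.60). The highest were the CDK inhibitor Cdkn1a, at 2.83, and the E2F family repressors E2f8 and E2f7, at 2.14 and 1.91. The lower call was E2f5, a repressor-type E2F, at -0.60, a call that was lost without WT replicate 2 (-0.54) or WT replicate 3 (-0.55).

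**Figure D5:**
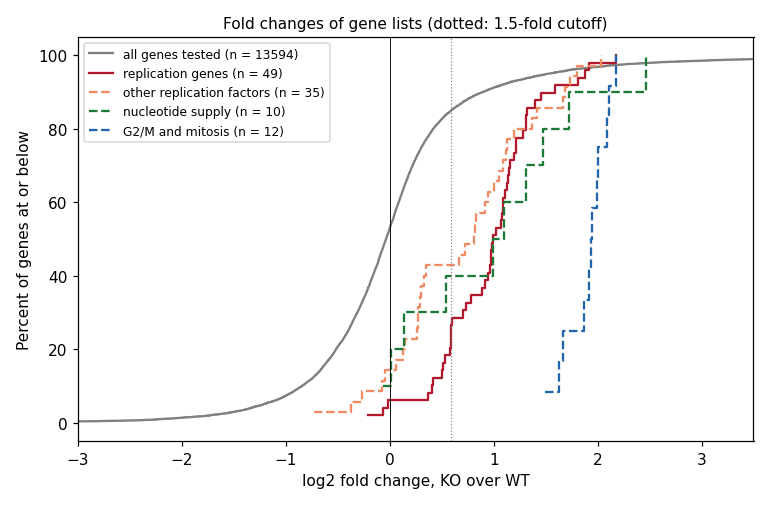
Cumulative percent of genes (y axis) at or below each log2 fold change, KO over WT (x axis), for all 13594 tested genes, the 49 replication genes, 35 other replication factors, 10 deoxynucleotide supply genes and 12 G2 and mitosis genes. The replication genes have a median of 0.99 against -0.04 for all tested genes, and the mitosis genes lie furthest to the right, at a median of 1.94.

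Marker genes of Tregs and of other cells were read beside these values. The 6 Treg markers Foxp3, Il2ra, Ctla4, Ikzf2, Cd4 and Cd3e summed to 4069, 3927 and 5104 CPM in WT and 3405, 3374 and 3309 CPM in KO. All 6 were present in every sample, and they did not move alike. Foxp3, which defines the lineage, was at 738, 642 and 1190.0 CPM in WT and 459.7, 472 and 463 CPM in KO and was called lower (log2 fold change -0.88), but not without WT replicate 3 (-0.57). Ikzf2, which encodes Helios, was called lower at -1.11, Cd4 was at 0.26 with no overlap, under the fold cutoff, and Il2ra overlapped. Ctla4 (-0.41) and Cd3e (-0.45) had every KO sample below every WT sample, and neither was called. Without WT replicate 3 they were at -0.07 and -0.56. All 4 myeloid markers analysed had counts in every sample and summed to 27.1, 27.8 and 16.6 CPM in WT and 46.4 to 53.7 CPM in KO. Of these Csf1r (2.19) and Itgam (2.13) were called higher, while Cd68 overlapped and was not called. Lyz2 was called higher at 0.92, a call that among single-sample omissions was kept only without WT replicate 2 (1.19). Both neutrophil markers analysed, S100a8 and S100a9, were at 0 in all WT samples and summed to 3.57 to 5.42 CPM in KO. The 3 NK cell markers summed to 3.59 to 5.83 CPM in WT and 14.9 to 16.2 CPM in KO. Most of the KO sum was Eomes, a transcription factor that T cells can also express, at 1.90, 1.80 and 3.24 CPM in WT and 11.6, 11.1 and 11.3 CPM in KO. Klrb1c was called higher at 1.08, a call that was lost without WT replicate 1, WT replicate 2, KO replicate 2 or KO replicate 3 (0.88, 0.94, 0.89 and 1.06). Ncr1 stayed under 1.25 CPM in every sample and was not called. B cell markers, 4 of 4, were at 16.0 to 18.1 CPM in WT and 10.8 to 10.95 CPM in KO, and Cd79b among them was called lower (-1.26). The 2 CD8 T cell markers summed to 9.32 to 13.2 CPM in WT and 12.02 to 12.7 CPM in KO. Of these Cd8b1 overlapped, while Cd8a was at 2.31, 1.005 and 2.25 CPM in WT and 4.11, 2.86 and 4.17 CPM in KO and was called higher (log2 fold change 0.9967), a call that was lost without WT replicate 2, KO replicate 1 or KO replicate 3 (0.70, 0.92 and 0.91). The 3 red cell markers analysed were at 53.8, 63.2 and 15.5 CPM in WT and 27.3 to 30.0 CPM in KO, so WT replicate 3 was lowest in these as it was in replication genes. The part of other cells, or of Tregs that express such markers, in the replication values was not tested. The replication genes themselves summed to 3224, 3246 and 2246 CPM in WT and 5886, 5619 and 5650 CPM in KO.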

How the data were processed

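CD4+YFP+CD25+ Tregs of 3 WT and 3 KO samples were profiled by RNA-Seq. The study's methods name SOAPnuke for read filtering, HISAT2 for alignment to mm10 (1 alignment per read) and StringTie for quantification. The authors deposited whole-number counts per gene without normalization. How these counts arose, their strand setting and the gene annotation are not given in the sources used here. No row summed to less than 60, so the deposited counts held no rows for the scarcest genes. How such rows came to be absent is not stated.

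Counts were tested with edgeR 4.0.16 in R 4.3.3 (filterByExpr at a minimum count of 10, TMM scaling, quasi-likelihood F-test, 2-sided, Benjamini-Hochberg adjustment over 13594 genes), KO against WT with no covariate. The study's cutoffs were used. SE was the log2 fold change divided by the square root of F. The procedure was checked on simulated counts. DESeq2 1.42.0, other scalings, filters and cutoffs, a replicate block and the omission of each sample were alternatives. Totals of 32032631 to 40728419 counts place 3 counts at 0.0737 to 0.0937 CPM, which covers counting error only. TPM used GENCODE M21 longest transcripts. Protein-coding genes with overlapping exons also came from GENCODE M21, and chromosomes came from RefSeq. Transcripts alike over at least 200 bases at 95% identity were taken as similar.

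The members and the other gene lists were chosen with earlier results of these data known. Full values were given for the genes with the highest and lowest log2 fold change of each role and for genes of the 10 ratio pairs. Outside the machinery, Zfp335, genes called lower and the 3 largest rises of each list were named, and cell type markers were given mainly as sums. Orc3, Orc4, Pcna and Lig1 were given in full, and Pole3, Pole4 and the single cell type markers were picked, after their values were seen. Same-numbered samples were not paired, since their deviations from the group means correlated at 0.0405, 0.0398 and -0.0106.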

Additional observations from a re-analysis of the deposited data

How the results depend on the processing

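The number of replication genes called higher was 40 with DESeq2, RLE size factors, a minimum of 10 counts in every sample or a replicate block, 39 with no low-count filter, 35 with library totals alone, which shifted the median of all genes from -0.04 to -0.07, and 46 when no fold cutoff was set and adjusted p had to be under 0.05. Over all genes, 1618 were called higher in the main fit, 1700 with DESeq2, 1677 with RLE size factors and 1629 with a replicate block. With a minimum of 10 counts in every sample 1400 were, of 12080 tested. With no low-count filter 1633 were, and with library totals alone 1521. A test against a fold change of 1.5 (glmTreat) called 23 replication genes, with 12 of the 35 other replication factors and 1686 genes in all, 941 higher and 745 lower. The cutoff of 0.05 with no fold limit called 5244 genes, 2610 higher and 2634 lower. Leaving out each sample in turn gave 34 to 40 replication genes called higher, lowest without WT replicate 3, medians of 0.82 to 1.15, and 1414 to 1862 genes called higher in all. No replication gene was called lower in any of these fits. Labels number the replicates alike in both genotypes but do not say that a number links samples, and WT replicate 3 and KO replicate 3 did not correlate best with their own number. The fit with the replicate block called 3190 genes, 1629 higher and 1561 lower.

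Orc3 changed sign with DESeq2 (0.00086), RLE size factors (0.00080), and when WT replicate 2 or KO replicate 3 was left out, over a range of -0.086 to 0.091. Orc4 changed sign without WT replicate 2, over a range of -0.18 to 0.048. Neither gene passed the threshold in these fits. The difference in the Cdt1 to Gmnn log2 ratio ranged from -0.36 to 0.033 when single samples were left out. Calls of Cdc7, Pold1, Rpa1 and Rpa3 were lost with library totals alone, and Pola2 was called in 7 alternatives. The cause of these changes was not tested. With coding lengths, the ratio of the highest to the lowest subunit was 1.90 and 1.67 for MCM2-7 in WT and KO, 6.93 for ORC in KO, 2.03 for GINS in KO, 3.53 for polymerase alpha in KO, 1.67 for polymerase delta in WT, 4.68 and 3.29 for the clamp loader in WT and KO, and 2.57 and 2.59 for RPA in WT and KO. The lowest count of a replication gene was 139 (Gins1 in WT replicate 3).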
